A study of Rattus norvegicus with 12 samples.

Results

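The extracellular matrix of the liver was followed through 10 genes chosen by name, namely the fibrillar collagen genes COL1A1, COL1A2 and COL3A1, the basement membrane genes COL4A1, COL4A2 and LAMC1, the collagen-binding genes SPARC and DCN, the adhesive glycoprotein gene FN1 and the protease inhibitor gene TIMP1. Of these, 8 had a row under that name among 14691 genes with values, while COL4A2 and LAMC1 were not found by name and were not analysed here. All 8 passed the filter of a mean of at least 1 RPKM (reads scaled per kilobase of transcript and by the number of mapped reads), which kept 8459 genes. Whole liver RNA of male Sprague Dawley rats, 4 to 5 months old, was sequenced at 0, 4, 12 and 24 h after partial hepatectomy (PH), giving 12 columns of the authors' mean RPKM. The columns titled Cont came from rats with a sham biliary fistula, those titled BF and BA from rats whose bile had been drained through a biliary fistula for 24 h before PH, in one of these groups with sodium taurocholate infused into the duodenum from 12 h before PH. All rats carried a duodenal catheter, and no rat without surgery was included. The study's figures use BF for the fistula alone and BA for the fistula with infusion, while the sample descriptions give the opposite, so columns are named here by title only and the mean of BF and BA against Cont is the comparison that does not depend on the reading.

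Each column averages 2 sequencing runs, 1 on a single rat and 1 on pooled RNA of 3 rats, and the number of reads is unknown. The spread between rats therefore could not be computed. Times were compared over the 3 conditions, and conditions over the 4 times, with a limma model of log2(RPKM + 1) that held both terms, and p-values were adjusted over all 8459 genes with the Benjamini-Hochberg method. Such a p measures a difference against what the 2 terms leave over, which includes any real difference in time course between conditions. Adding 1 RPKM understates the differences of low genes such as COL1A1. Summed RPKM ran from 727435 to 982826 per column, highest in BA 4 h, where albumin alone took 30.9%. The BF 12 h column held 164.3 RPKM over 16 genes of pancreatic acinar cells, of which 1 was at 0, against 5.42 to 23.57 RPKM in the other 11 columns, and pancreas has matrix genes of its own. Calls on single genes that were lost without one of these columns are named as such.

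In the liver, hepatic stellate cells and portal fibroblasts make most fibrillar collagen, endothelium and stellate cells share in the basement membrane of vessels and ducts, and hepatocytes secrete the plasma form of fibronectin. Collagens of types I and III assemble into fibrils in the space around cells, type IV collagen forms the sheet-like network of basement membranes, and TIMP proteins hold back the metalloproteinases that degrade both. After PH the remaining liver grows by hepatocyte division first, with the other cell types following, and its matrix is degraded and laid down again during this growth. In whole liver, fewer cells of a type and less RNA per cell cannot be told apart.

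RPKM is scaled per length, so levels are set side by side here, but it corrects for no other difference between genes in how reads are found. FN1 was the highest of the 8 genes and COL1A1 the lowest in all 12 columns. At 0 h, FN1 ran from 417.7 to 680.94 RPKM, SPARC from 55.45 to 68.2 RPKM, COL3A1 from 30.6 to 42.55 RPKM and DCN from 10.46 to 19.23 RPKM, and these ranges did not overlap. TIMP1, at 5.17 to 22.61 RPKM, overlapped with DCN, with COL1A2 at 5.82 to 7.99 RPKM and with COL4A1 at 5.51 to 8.06 RPKM, so that the order of TIMP1, COL1A2 and COL4A1 was not set beyond the spread between columns. COL1A1 stood apart at 1.42 to 2.23 RPKM.

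**Figure D1:**
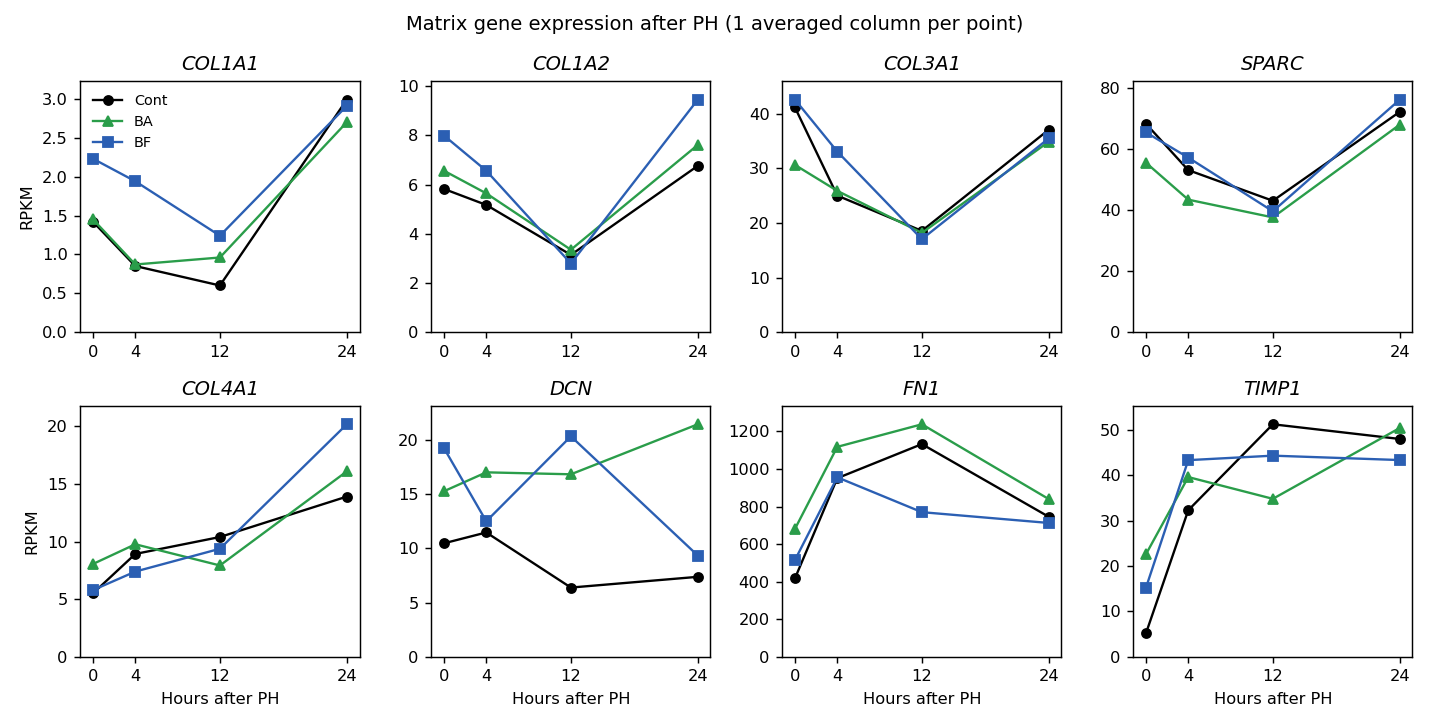
RPKM (vertical axis, from 0, with its own scale in each panel) of the 8 matrix genes against hours after PH, with 1 point for each averaged column and lines joining the columns titled Cont, BA and BF. COL1A2, COL3A1 and SPARC were lowest at 12 h in each condition, as was COL1A1 in Cont and BF, FN1 and TIMP1 lay above their 0 h level at every later time, and DCN shows no course common to the conditions.

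The 3 fibrillar collagen genes were low at 12 h and higher again at 24 h. At 24 h COL1A1 and COL1A2 lay above their 0 h value in each condition. COL3A1 lay within its 0 h range, below its 0 h value in Cont and BF and above it in BA. COL3A1, which encodes the single chain type of collagen III, was at 41.12, 24.99, 18.53 and 37.05 RPKM at 0, 4, 12 and 24 h in Cont, at 30.6, 25.86, 18.16 and 34.85 RPKM in BA and at 42.55, 33.05, 17.02 and 35.46 RPKM in BF. The 12 h columns lay below all columns of the other times. COL3A1 fell by 1.03 on the log2 scale between 0 and 12 h (SE 0.13, limma, adjusted p = 0.00113) and rose by 0.96 between 12 and 24 h (SE 0.13, limma, adjusted p = 0.00104), while 24 h against 0 h gave -0.07 (SE 0.13, limma, adjusted p = 0.69). Its fall was in part present at 4 h, at -0.43 (SE 0.13, limma, adjusted p = 0.0268).

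COL1A2, the gene of the alpha 2 chain of collagen I, followed the same course at a lower level. It was at 5.82, 5.17, 3.14 and 6.76 RPKM at the 4 times in Cont, at 6.56, 5.64, 3.35 and 7.61 RPKM in BA, and at 7.99, 6.56, 2.79 and 9.45 RPKM in BF. Again the 12 h columns did not overlap with those of any other time. COL1A2 fell by 0.92 between 0 and 12 h (SE 0.12, limma, adjusted p = 0.00122) and by 0.73 between 4 and 12 h (SE 0.12, limma, adjusted p = 0.00587), and it rose by 1.12 between 12 and 24 h (SE 0.12, limma, adjusted p = 0.000324). The differences at 4 h and at 24 h from 0 h, -0.19 and 0.20, did not pass the threshold of 0.05.

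COL1A1, the gene of the alpha 1 chain, was at 1.42, 0.85, 0.6 and 2.99 RPKM in Cont, at 1.45, 0.87, 0.96 and 2.7 RPKM in BA and at 2.23, 1.94, 1.24 and 2.91 RPKM in BF. At 24 h all 3 columns lay above every earlier column. COL1A1 fell by 0.48 between 0 and 12 h (SE 0.14, limma, adjusted p = 0.031), rose by 1.01 between 12 and 24 h (SE 0.14, limma, adjusted p = 0.00113), and at 24 h stood 0.53 above 0 h (SE 0.14, limma, adjusted p = 0.019). In linear terms the 24 h level was 2.11-fold the 0 h level in Cont, 1.86-fold in BA and 1.3-fold in BF. Collagen I is built from 2 alpha 1 chains and 1 alpha 2 chain, a balance of protein that was not measured here. In RPKM, COL1A2 exceeded COL1A1 by 2.25-fold in BF 12 h to 6.48-fold in BA 4 h. COL1A1 was low, at 0.6 to 2.99 RPKM, so this ratio is uncertain and does not give the balance of the chains.

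The fall of COL1A1 at 12 h did not pass without any one of 5 columns, with an adjusted p up to 0.133 (limma) without Cont 12 h and 0.0817 without BF 12 h. Its rise over 0 h at 24 h did not pass without any one of 5 columns either, with an adjusted p up to 0.0933 (limma) without Cont 24 h. The fall of COL3A1 at 4 h was lost without any one of Cont 0 h, Cont 4 h, BA 4 h or BF 0 h, with an adjusted p up to 0.11 (limma), and its fall of 0.61 from 4 to 12 h (adjusted p = 0.0132) without BF 12 h (adjusted p = 0.051).

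SPARC, a secreted glycoprotein that binds collagen and is needed for orderly fibrils, was second to FN1 in every column but Cont and BF at 12 h, where TIMP1 lay above it. It was at 68.2, 53.03, 42.99 and 72.1 RPKM in Cont, at 55.45, 43.36, 37.55 and 67.91 RPKM in BA and at 65.37, 57.13, 39.55 and 76.09 RPKM in BF. The 12 h columns were below all other columns, though BA 4 h lay only just above Cont 12 h. SPARC fell by 0.64 between 0 and 12 h (SE 0.10, limma, adjusted p = 0.00206) and rose by 0.83 between 12 and 24 h (SE 0.10, limma, adjusted p = 0.000441). Its fall at 4 h, by 0.30 (SE 0.10, limma, adjusted p = 0.0308), was lost without any one of 5 columns, BA 4 h among them (adjusted p up to 0.113), and its fall from 4 to 12 h, by 0.34 (SE 0.10, limma, adjusted p = 0.0316), without any one of 6 (adjusted p up to 0.115, without BF 12 h).

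Across the 12 columns, Pearson's r was 0.91 between COL1A2 and COL3A1, 0.92 between COL3A1 and SPARC, 0.88 between COL1A2 and SPARC and 0.78 between COL1A1 and COL1A2. These are descriptions over 12 columns that share the 4 times and the scaling of RPKM. The promoters of COL1A2 and SPARC, 2 of the genes that moved together, are shown for that reason, from RefSeq on GRCr8, as 250 bases before to 50 bases after the annotated start and read in the direction of the gene. Capitals mark matches, on either strand, to 6 motifs. These were the AP-1 site TGANTCA, a motif 1 base from that site with the letters TGAGTAA, the box with the letters CCAAT, the GC box with the letters GGGCGG, the TATA box with the letters TATAAA and the STAT site with the letters TTCNNNGAA. The COL1A2 window is chr4:33518307-33518606 on the plus strand and the SPARC window chr10:40038767-40039066 on the minus strand. Of the 33469 promoters in the table, 7.33% held the AP-1 site, 2.9% the motif 1 base from it, 37.5% the CCAAT box, 33.1% the GC box, 14.2% the TATA box and 8.87% the STAT site, in that order.
COL1A2: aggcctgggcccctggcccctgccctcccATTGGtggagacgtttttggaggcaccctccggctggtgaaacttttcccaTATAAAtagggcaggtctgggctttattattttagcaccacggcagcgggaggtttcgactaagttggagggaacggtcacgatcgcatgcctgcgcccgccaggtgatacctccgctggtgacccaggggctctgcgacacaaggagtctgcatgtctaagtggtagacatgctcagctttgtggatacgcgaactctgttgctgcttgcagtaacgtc
SPARC: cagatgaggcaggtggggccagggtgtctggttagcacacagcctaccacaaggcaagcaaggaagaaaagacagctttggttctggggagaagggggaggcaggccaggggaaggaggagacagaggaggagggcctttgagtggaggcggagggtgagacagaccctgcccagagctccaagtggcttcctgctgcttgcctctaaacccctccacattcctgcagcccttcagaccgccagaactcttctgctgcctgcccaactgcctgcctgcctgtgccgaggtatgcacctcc
The COL1A2 window held CCAAT on the opposite strand from position -221 and TATAAA from position -170, counted from the annotated start, while the SPARC window held none of these letters. No match overlapped another in these windows. The 50 bases after the COL1A2 start open with the letters ATG, so this may be where the protein starts and not the transcript. The COL1A2 positions may then not compare with those of the other windows.

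DCN encodes decorin, a small proteoglycan that coats collagen fibrils and binds TGF-beta. It was at 10.46, 11.46, 6.38 and 7.37 RPKM at 0, 4, 12 and 24 h in Cont, at 15.26, 17, 16.82 and 21.43 RPKM in BA and at 19.23, 12.49, 20.32 and 9.33 RPKM in BF. The columns of the different times overlapped in each of the 5 comparisons of times, and none of the 5 differences passed the threshold (limma, adjusted p from 0.411 to 0.933). Its 95% interval for 24 h against 0 h ran from -0.97 to 0.33. DCN did not follow the fibrillar collagens, with r between -0.07 and 0.03 to COL1A1, COL1A2 and COL3A1 over the 12 columns.

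COL4A1 encodes the alpha 1 chain of the type IV collagen found in every basement membrane. It was at 5.51, 8.93, 10.4 and 13.91 RPKM in Cont, at 8.06, 9.77, 7.93 and 16.1 RPKM in BA and at 5.79, 7.4, 9.38 and 20.19 RPKM in BF. The 3 columns at 24 h lay above all 9 earlier columns, while those of 0, 4 and 12 h overlapped. COL4A1 rose by 1.25 between 0 and 24 h (SE 0.18, limma, adjusted p = 0.00141) and by 0.78 between 12 and 24 h (SE 0.18, limma, adjusted p = 0.00867). At 12 h it stood 0.47 above 0 h (SE 0.18, limma, adjusted p = 0.0783), with BA at its 0 h level and Cont and BF at 1.89-fold and 1.62-fold of theirs. This difference passed without BA 0 h or BA 12 h (limma, adjusted p = 0.0459 and 0.0437).

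COL4A1 and COL4A2 are transcribed away from each other from starts that lie close together, and their shared promoter is shown because COL4A1 was the collagen gene with the largest rise over 0 h among the 4 measured. On GRCr8 the annotated starts were separated by 76 bases, and the 300-base windows of the 2 genes shared 176 bases. The COL4A1 window is chr16:84885347-84885646 on the plus strand, with capitals for the same motifs.
COL4A1: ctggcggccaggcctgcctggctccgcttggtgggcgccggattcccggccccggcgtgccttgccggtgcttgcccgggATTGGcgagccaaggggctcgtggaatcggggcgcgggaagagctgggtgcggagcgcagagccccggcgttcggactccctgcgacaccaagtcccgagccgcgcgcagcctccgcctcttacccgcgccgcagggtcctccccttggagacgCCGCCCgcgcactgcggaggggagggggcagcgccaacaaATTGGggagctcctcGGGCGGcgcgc
It held CCAAT on the opposite strand from positions -170 and 25, and GGGCGG from position 40 and, on the opposite strand, from -16. G and C made up 75% of this window, against 57% of that of COL1A2.

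FN1 encodes fibronectin, which links cells to collagen and fibrin and circulates in plasma. It was at 417.7, 950.86, 1132.34 and 745.33 RPKM in Cont, at 680.94, 1117.67, 1237.89 and 839.56 RPKM in BA and at 515.09, 955.5, 769.97 and 712.5 RPKM in BF. Every later column lay above all 3 columns at 0 h. FN1 rose by 0.93 at 4 h (SE 0.17, limma, adjusted p = 0.00249), by 0.96 at 12 h (SE 0.17, limma, adjusted p = 0.00359) and by 0.53 at 24 h (SE 0.17, limma, adjusted p = 0.033), each against 0 h. The last of these was lost without any one of 5 columns, with an adjusted p up to 0.129 (limma) without Cont 0 h. Between 12 and 24 h the difference was -0.42 (SE 0.17, limma, adjusted p = 0.062), and it passed, at -0.60 (limma, adjusted p = 0.0242), without BF 12 h, and at -0.42 without Cont 0 h (adjusted p = 0.039) and with no trend in the variance (adjusted p = 0.0498).

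TIMP1 encodes a secreted inhibitor of matrix metalloproteinases. It was at 5.17, 32.31, 51.27 and 48.03 RPKM in Cont, at 22.61, 39.63, 34.83 and 50.45 RPKM in BA and at 15.22, 43.36, 44.35 and 43.38 RPKM in BF. The 0 h columns lay below all later ones, with no overlap. TIMP1 rose by 1.56 at 4 h (SE 0.37, limma, adjusted p = 0.00866), by 1.72 at 12 h (SE 0.37, limma, adjusted p = 0.00882) and by 1.86 at 24 h (SE 0.37, limma, adjusted p = 0.00555), and the differences between the later times did not pass. The linear rise at 4 h was 6.25-fold in Cont, 2.85-fold in BF and 1.75-fold in BA. Without the Cont 0 h column the log2 rises were 0.99, 1.16 and 1.29 at 4, 12 and 24 h (limma, adjusted p = 0.014, 0.0144 and 0.00898).

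The promoter of TIMP1, the member with the largest rise, is shown as chrX:3771073-3771372 on the minus strand, from RefSeq on GRCr8, with capitals for the same motifs.
TIMP1: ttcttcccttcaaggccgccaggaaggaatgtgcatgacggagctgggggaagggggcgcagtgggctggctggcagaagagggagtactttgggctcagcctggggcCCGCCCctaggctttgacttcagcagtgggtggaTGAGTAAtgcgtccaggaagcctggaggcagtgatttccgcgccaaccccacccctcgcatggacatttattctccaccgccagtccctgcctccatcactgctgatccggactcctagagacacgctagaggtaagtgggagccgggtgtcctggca
It held TGAGTAA from position -108, a motif added to the search after this sequence was seen, and GGGCGG on the opposite strand from position -142, with no overlap. TGANTCA itself was not in this window. Promoters of COL1A1, COL3A1, DCN and FN1 were not analysed here.

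**Figure D2:**
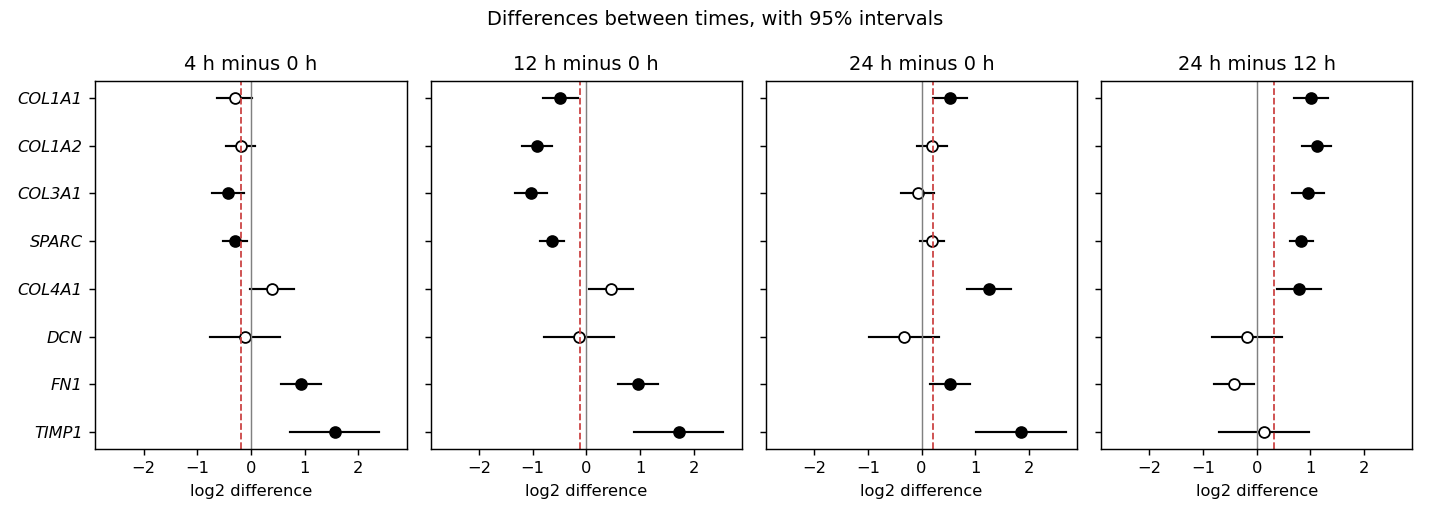
Fitted log2 differences of RPKM + 1 between times (horizontal axis) for the 8 matrix genes, with 95% intervals from the limma model over 12 columns, filled where the adjusted p was under 0.05 and open otherwise, and the median of all 8459 genes as a dashed line. At 12 h against 0 h the fibrillar collagens and SPARC lay left of the median gene and FN1 and TIMP1 right of it, and at 24 h against 12 h COL1A1, COL1A2, COL3A1, SPARC and COL4A1 lay right of it.

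Counted over the 8 genes, 2 rose (FN1, TIMP1) and 2 fell (COL3A1, SPARC) at 4 h against 0 h, where 12.9% of all tested genes rose and 32.4% fell. At 12 h against 0 h, 2 rose (FN1, TIMP1) and 4 fell (COL1A1, COL1A2, COL3A1, SPARC), beside 9.03% and 22.5% of all genes. At 24 h against 0 h, 4 rose (COL1A1, COL4A1, FN1, TIMP1) and none fell at an adjusted p under 0.05 in limma, beside 30.6% and 5.54% of all genes, and COL1A2, SPARC, COL3A1 and DCN had p-values above 0.05 also before adjustment. From 4 to 12 h, 3 fell (COL1A2, COL3A1, SPARC) and none rose, beside 12% and 13.9%, and from 12 to 24 h, 5 rose (COL1A1, COL1A2, COL3A1, COL4A1, SPARC) and none fell, beside 43.6% and 1.8%, with FN1 lower at an unadjusted p of 0.0302. Against 43.6% of all genes, 5 of 8 is no result about these genes.

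The median gene itself moved with time, by -0.20 at 4 h, -0.12 at 12 h and 0.21 at 24 h against 0 h, and by 0.33 from 12 to 24 h. With columns divided by the level of their own median gene, the falls at 12 h against 0 h still passed for the same 4 genes, and COL4A1 then passed as well, at 0.59 (limma, adjusted p = 0.0401). The falls at 4 h did not pass after rescaling, at -0.30 for COL3A1 (limma, adjusted p = 0.124) and -0.16 for SPARC (adjusted p = 0.191), and neither did the rises at 24 h over 0 h of COL1A1, at 0.29 (adjusted p = 0.152), and FN1, at 0.20 (adjusted p = 0.422). COL4A1 at 24 h over 0 h still rose by 0.94 (limma, adjusted p = 0.00805). For COL1A2 and COL3A1 the rescaled differences of 24 h from 0 h were -0.096 and -0.40 (limma, adjusted p = 0.617 and 0.0675). From 12 to 24 h, rescaling left rises of COL1A1, COL1A2, COL3A1 and SPARC, took away that of COL4A1 (0.35, adjusted p = 0.236) and gave a fall of FN1 of -0.90 (limma, adjusted p = 0.00966).

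Values of cell type markers moved beside these genes, and their part in the results was not tested. The summed level of 10 stellate cell markers was 45.98 to 55.75 RPKM at 0 h and 58.09 to 61.02 RPKM at 12 h, when the fibrillar collagens were low. Of 8 tested members, 1 was higher and 2 lower at 12 h, beside 9.03% and 22.5% of all genes. The higher sum came from HGF, at 7.4 to 10.25 RPKM at 0 h and 15.38 to 29.93 RPKM at 12 h. Without HGF the other 9 markers summed to 38.58, 40.43 and 47.85 RPKM in Cont, BA and BF at 0 h and to 30.27, 31.09 and 42.71 RPKM at 12 h, lower in each condition. That sum was 37.48 to 45.73 RPKM at 24 h. Its markers did not move together between 0 and 12 h. LRAT, RELN, RGS5 and NGFR were lower at 12 h in each condition, while PDGFRB and CYGB were higher in each. DES, GFAP and HAND2 differed in direction between conditions. LRAT was at 6.03 to 10.09 RPKM at 0 h and 0.92 to 2.8 RPKM at 12 h. CYGB was at 4.36 to 7.09 RPKM and 7.02 to 9.32 RPKM at these times. The 6 markers of portal fibroblasts and mesothelium summed to 6.79 to 8.04 RPKM at 0 h, 5.08 to 8.67 RPKM at 12 h and 8.43 to 9.99 RPKM at 24 h, with THY1 and WT1 under 1 RPKM in every column. Of 11 macrophage markers, summed to 505.6 to 581.6 RPKM at 0 h and 406.5 to 413.8 RPKM at 12 h, 6 were lower at 12 h than at 0 h and 7 higher at 24 h than at 12 h, beside 22.5% and 43.6% of all genes, and with rescaled columns these counts were 4 and 0. Rescaled columns had 1413 of all 8459 genes lower at 12 h against 0 h and 632 higher from 12 to 24 h. The 8 endothelial markers summed to 125.7 to 144.2 RPKM at 0 h and 94.3 to 113.3 RPKM at 12 h, with 1 higher and 3 lower. The 11 hepatocyte markers summed to 146300 to 170500 RPKM at 0 h and 89850 to 97060 RPKM at 12 h, with 1 higher and 3 lower, and the 6 cholangiocyte markers summed to 23.45 to 24.77 RPKM at 0 h and 16.58 to 23.96 RPKM at 12 h, with 2 of 5 lower. Albumin was the largest part of the hepatocyte sum, at 87627.73 to 99927.86 RPKM at 0 h and 41049.05 to 45302.89 RPKM at 12 h. Of all genes, 9.03% were higher and 22.5% lower at 12 h. With so few markers, the stellate, endothelial, hepatocyte and cholangiocyte counts are no result about these lists.

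Acute phase proteins, which hepatocytes secrete in response to injury, moved beside FN1 and TIMP1 at 4 and 12 h. The sum of 17 such genes was 59480 RPKM in Cont 0 h, against 164800 RPKM in BF 0 h and 174100 RPKM in BA 0 h, and reached 243600 to 270700 RPKM at 12 h. Of the 17, 5 rose at 4 h, 9 at 12 h and 2 at 24 h, each against 0 h, beside 12.9%, 9.03% and 30.6% of all genes. With rescaled columns none rose and 2 fell at 24 h, beside 874 higher and 1448 lower of all 8459 genes. TIMP1 then still rose by 1.53 at 24 h (limma, adjusted p = 0.018). TIMP1 was lowest in the same Cont 0 h column, and the part of the acute phase in its values was not tested.

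Conditions were then compared. The mean of BF and BA against Cont sets fistula against sham and joins rats with and without infused taurocholate. It therefore does not isolate a drained bile acid pool. BF against BA compares fistula with and without the infusion, and which is which depends on the reading of the titles. None of the 8 genes passed in any of the 4 comparisons of conditions across all times (limma), where 0.804% of all genes differed between BF and Cont, 0.0709% between BA and Cont, 0.0118% between BF and BA and 1.31% between the mean of BF and BA and Cont. At an unadjusted p under 0.05, COL1A1, COL1A2 and DCN were higher in BF than in Cont, DCN was higher and SPARC lower in BA than in Cont, SPARC and COL1A1 were higher and FN1 lower in BF than in BA, and DCN was higher in the fistula mean than in Cont. Of all genes, 21.9% differed at that threshold between BF and Cont, 22.7% between BA and Cont, 7.81% between BF and BA and 26.8% between the fistula mean and Cont, and the comparisons share columns, so these counts of members are no result about them.

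DCN was the member with the largest difference. Its value was above Cont at every time in both BF and BA, and its 4 BA columns, at 15.26 to 21.43 RPKM, did not overlap with the 4 Cont columns, at 6.38 to 11.46 RPKM, while BF, at 9.33 to 20.32 RPKM, overlapped with both. The mean of BF and BA lay 0.81 above Cont on the log2 scale (SE 0.22, limma, unadjusted p = 0.00441, adjusted p = 0.0832, 95% interval 0.32 to 1.3), and the adjusted p ranged from 0.0722 to 0.23 over the settings tried. For BA against Cont it was 0.93 (SE 0.25, limma, adjusted p = 0.117) and for BF against Cont 0.69 (SE 0.25, limma, adjusted p = 0.165). The difference between BF and BA was -0.24, with a 95% interval from -0.81 to 0.33.

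For the other members the intervals of the fistula mean against Cont bound what these columns can show. They ran from -0.02 to 0.46 for COL1A1, from -0.02 to 0.39 for COL1A2, from -0.25 to 0.20 for COL3A1, from -0.27 to 0.06 for SPARC and from -0.23 to 0.38 for COL4A1. For FN1 the interval ran from -0.17 to 0.40 and for TIMP1 from -0.22 to 1.03.

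At single times, with 1 column a group and no test, few members differed by 2-fold or more on the scale of RPKM + 1. At 0 h, after 24 h of fistula or sham and before any regrowth, TIMP1 was at 5.17 RPKM in Cont, 15.22 RPKM in BF and 22.61 RPKM in BA, log2 ratios to Cont of 1.39 and 1.94. It was the 1 of 8 members past 2-fold in each, where 1.73% of all genes were 2-fold higher in BF and 1.87% in BA. At 4 h and later the TIMP1 ratios to Cont lay between -0.54 and 0.41.

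At 12 h DCN was at 6.38 RPKM in Cont, 20.32 RPKM in BF and 16.82 RPKM in BA, log2 ratios of 1.53 and 1.27, and it was the 1 member past 2-fold, beside 1.84% and 0.591% of all genes. The BF ratio rests on the BF 12 h column, the one with pancreatic acinar genes. Without that column the log2 difference of DCN in BF against Cont over the times was 0.47. At 24 h the DCN ratio was 1.42 in BA to Cont, beside 0.721% of all genes, 0.30 in BF to Cont, and -1.12 in BF to BA, beside 0.969% of all genes. No member was past 2-fold at 4 h. DCN in BF at 0 h lay just inside the limit, at 0.82, and passed it at 1.02 when columns were rescaled on the median gene, and COL1A1 at 4 h, at 1.94 RPKM in BF, 0.85 RPKM in Cont and 0.87 RPKM in BA, passed it in BF against both with a pseudocount of 0.1 RPKM.

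**Figure D3:**
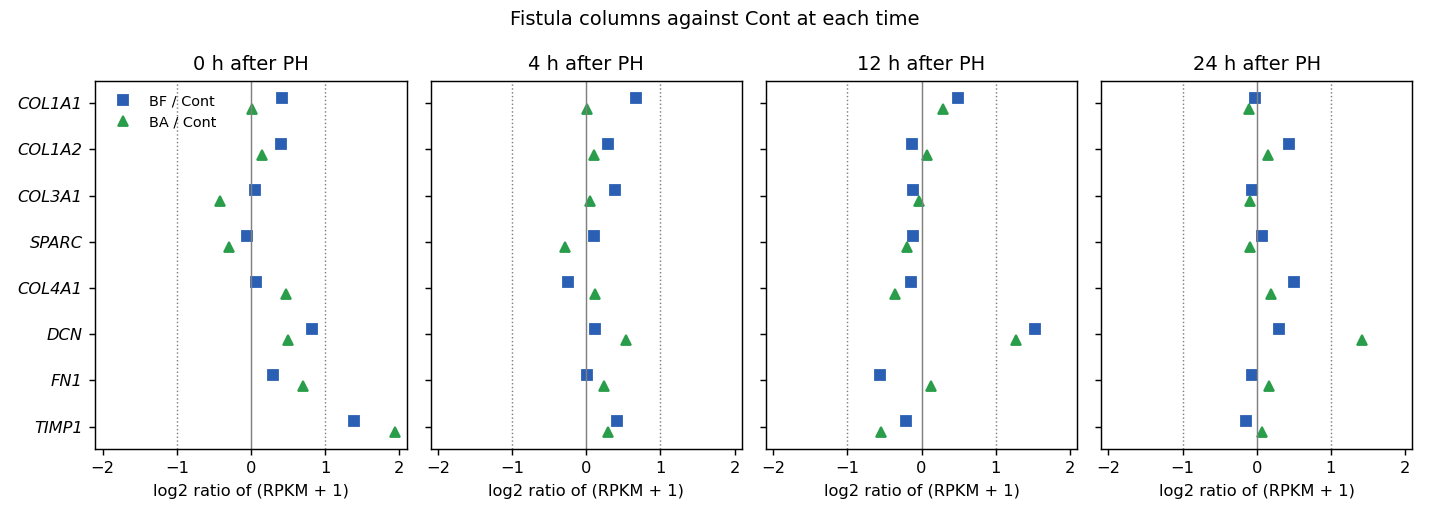
Log2 ratio of RPKM + 1 (horizontal axis) of the columns titled BF (squares) and BA (triangles) to Cont at each time for the 8 matrix genes, 1 column a group and no error, with dotted lines at 2-fold. TIMP1 at 0 h, DCN in both at 12 h and DCN in BA at 24 h lay outside the dotted lines.

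Other genes of the matrix were counted from lists by role. In the list of fibrillar collagens and their assembly, 31 of 40 symbols were in the table and 24 were tested. Of these, 1 rose and 6 fell at 4 h, 2 rose and 8 fell at 12 h and 7 rose and 2 fell at 24 h against 0 h, and from 12 to 24 h, 13 rose and 2 fell, with medians of -0.22, -0.13, 0.23 and 0.51 beside -0.20, -0.12, 0.21 and 0.33 for all genes. These shares can be read against 12.9% and 32.4% of all genes higher and lower at 4 h, 9.03% and 22.5% at 12 h, 30.6% and 5.54% at 24 h, and 43.6% and 1.8% from 12 to 24 h. After rescaling, the counts were 1 higher and 2 lower at 4 h, 3 higher and 6 lower at 12 h, 1 higher and 3 lower at 24 h with a median of -0.09, and 5 higher and 4 lower from 12 to 24 h. The balance at 24 h against 0 h thus turned with the scaling, and so did that of all genes. Of all 8459 genes, rescaling left 1531 higher and 2121 lower at 4 h, and 1362 and 1413 at 12 h. It left 874 higher and 1448 lower at 24 h against 0 h, and 632 and 934 from 12 to 24 h. At 12 h against 0 h, without the 4 members studied here, 2 rose and 5 fell of 20.

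Genes that help to fold and crosslink collagen moved in both directions. SERPINH1, the collagen chaperone, fell by 0.78 at 4 h (limma, adjusted p = 0.0472) and rose by 1.01 at 24 h (limma, adjusted p = 0.0216), from 9.88 to 16.95 RPKM at 0 h to 22.78 to 28.8 RPKM at 24 h, and neither difference passed after rescaling. The fall was lost without any one of 8 columns, BA 4 h and BF 12 h among them (adjusted p up to 0.201), and the rise without any one of Cont 0 h, Cont 24 h, BA 24 h, BF 0 h or BF 24 h. LEPRE1, a prolyl hydroxylase of procollagen, rose by 0.89 at 12 h (limma, adjusted p = 0.00384), from 11.13 to 13.57 RPKM to 20.54 to 27.77 RPKM, when the fibrillar collagen genes were lowest. LOXL4, a crosslinking oxidase, fell by 0.75 at 4 h and by 0.71 at 24 h (limma, adjusted p = 0.0033 and 0.00561). PLOD2, a lysyl hydroxylase, rose by 0.62 at 4 h and by 0.75 at 24 h (limma, adjusted p = 0.0285 and 0.0161), the latter not passing after rescaling. Its 4 h rise was lost without BA 4 h or any 1 column at 0 h, and its 24 h rise without Cont 0 h, Cont 24 h or BF 24 h. ELN, the gene of elastin, and COL14A1, which encodes a collagen that sits on fibrils, fell by 0.84 and 0.65 at 12 h (limma, adjusted p = 0.00426 and 0.0028).

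PCOLCE, which encodes an enhancer of the trimming of procollagen, was the 1 gene of the matrix lists that differed between the fistula columns and Cont. It was at 4.65, 3.76, 8.07 and 21.55 RPKM at 0, 4, 12 and 24 h in Cont, at 32.75, 19.82, 16.44 and 43.43 RPKM in BA and at 44.13, 25.76, 36.48 and 43.1 RPKM in BF. Both fistula columns were above Cont at each time. PCOLCE was higher by 1.89 in the mean of BF and BA (SE 0.26, limma, adjusted p = 0.0312). The count of 1 in this list became 0 without the filter on low values and without any one of Cont 0 h, Cont 4 h, BA 0 h, BA 24 h, BF 0 h or BF 4 h, and 2 without BA 12 h.

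Of the basement membrane list, 12 of 26 symbols were in the table and 5 were tested, with 3 lower at 4 h, 3 lower at 12 h, 2 higher and 1 lower at 24 h, and 3 higher from 12 to 24 h. With 32.4% of all genes lower at 4 h, 22.5% lower at 12 h, 30.6% higher at 24 h and 43.6% higher from 12 to 24 h, and so few genes, these counts are no result about the list. LAMA3, a laminin chain of epithelial basement membranes, fell by 1.31 at 4 h and by 1.01 at 12 h (limma, adjusted p = 0.00127 and 0.00615) and rose by 0.63 at 24 h (limma, adjusted p = 0.0349), a rise that did not pass after rescaling or without any 1 of the columns at 0 and 24 h. AGRN, the gene of the proteoglycan agrin, fell by 0.71, 0.53 and 0.31 at the 3 times (limma, adjusted p = 0.00113, 0.00667 and 0.0446). The 24 h difference of AGRN was lost without any 1 of the columns at 0 and 24 h and without Cont 12 h or BF 12 h (adjusted p up to 0.185).

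In the list of matrix proteases and their inhibitors, 25 of 42 genes were tested, of which 6 rose and 4 fell at 4 h, 4 rose and 5 fell at 12 h and 7 rose and 2 fell at 24 h, with medians of 0.20, -0.11 and 0.31. The 7 of 25 at 24 h stand beside 30.6% of all genes, and after rescaling 2 rose and 4 fell with a median of 0.023. Of all 8459 genes, 874 were then higher and 1448 lower. At 4 h and 12 h the shares of all genes were 12.9% higher and 32.4% lower, and 9.03% higher and 22.5% lower. TIMP3, a relative of TIMP1 that stays bound to matrix, was at 5.5 to 6.39 RPKM at 0 h, 12.33 to 23.74 RPKM at 4 h and 1.87 to 3.3 RPKM at 12 h. It rose by 1.42 at 4 h (limma, adjusted p = 0.00366) and fell by 0.93 at 12 h (limma, adjusted p = 0.0325), while TIMP1 was above its 0 h level at both times. The 12 h difference of TIMP3 did not pass after rescaling (adjusted p = 0.06) or without any 1 of the columns at 0 and 12 h, BF 12 h among them. MMP15, a membrane-bound metalloproteinase, fell by 1.93 at 4 h (limma, adjusted p = 0.000279). PLG, the gene of plasminogen, fell by 1.09 at 12 h and by 0.78 at 24 h (limma, adjusted p = 0.000441 and 0.00135).

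A2M, the gene of the broad protease inhibitor alpha 2 macroglobulin, rose by 4.46 at 12 h (limma, adjusted p = 0.0263), from 7.61 RPKM in Cont and 1772.27 and 1892.09 RPKM in BF and BA at 0 h to between 4637.33 and 9188.37 RPKM. Without Cont 0 h this rise was 2.33 (limma, adjusted p = 0.011), and it did not pass without Cont 12 h or BF 12 h (adjusted p up to 0.123). MMP23 and ADAMTS9, a metalloproteinase and a proteoglycanase, rose by 0.73 each at 24 h (limma, adjusted p = 0.00251 and 0.0455), both from under 1 RPKM, and ADAMTS9 did not pass after rescaling or without any 1 of 8 columns, BF 12 h among them.

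Of the adhesive and matricellular proteins, to which FN1 belongs, 16 of 34 were tested, with 6 higher at 4 h, 5 higher and 4 lower at 12 h and 3 higher and 3 lower at 24 h. Of all genes, 12.9% were higher and 32.4% lower at 4 h, 9.03% and 22.5% at 12 h and 30.6% and 5.54% at 24 h. After rescaling the list had 0 higher and 4 lower at 24 h, beside 874 and 1448 of all 8459 genes. The fibrinogen chains FGA, FGB and FGG, whose product binds fibronectin in clots, rose by 1.67, 1.71 and 1.72 at 12 h (limma, adjusted p = 0.00448, 0.00361 and 0.00334). CTGF, a matricellular growth factor, was at 1.91 to 2.41 RPKM at 0 h and 7.62 to 22.85 RPKM at 4 h, and rose by 2.30 (limma, adjusted p = 0.000696). ECM1 and SPARCL1, the latter a relative of SPARC, fell by 1.0 and 0.80 at 24 h (limma, adjusted p = 0.000637 and 0.00151), when SPARC itself was back at its 0 h range or above it.

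Among the receptors of the matrix, 9 of 25 were tested, with 3 higher and 4 lower at 4 h, 1 higher and 3 lower at 12 h, and 2 higher and 1 lower at 24 h. Of all genes 12.9% and 32.4%, 9.03% and 22.5%, and 30.6% and 5.54% were higher and lower at these times, so that counts over 9 genes are no result about the list. ITGB1, the common beta chain of collagen and fibronectin receptors, rose by 0.81 at 24 h (limma, adjusted p = 0.00104), from 40.56 to 51.39 RPKM to 75.14 to 90.21 RPKM. ITGA5, the alpha chain of the fibronectin receptor, fell by 0.85 at 4 h (limma, adjusted p = 0.00683) while FN1 rose. ITGB5, a vitronectin receptor chain, fell by 0.99 at 4 h and by 0.85 at 12 h (limma, adjusted p = 0.00448 and 0.0134), the latter lost without Cont 12 h (adjusted p = 0.062), and SDC4, a syndecan that binds fibronectin, rose by 0.98 at 4 h (limma, adjusted p = 0.00429).

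Of 5 tested genes of TGF-beta ligands and receptors, which drive collagen expression in stellate cells, 1 rose and 1 fell at 4 h. None passed at 12 h, and 1 fell at 24 h. Of all genes 12.9% and 32.4%, 9.03% and 22.5%, and 30.6% and 5.54% were higher and lower at these times. Counts over 5 genes are therefore no result about the list. TGFB3 was at 0.98 to 1.19 RPKM at 0 h and 5.04 to 6.38 RPKM at 4 h, a rise of 1.72 (limma, adjusted p = 0.000267). TGFBR2 fell by 0.65 (limma, adjusted p = 0.00552).

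**Figure D4:**
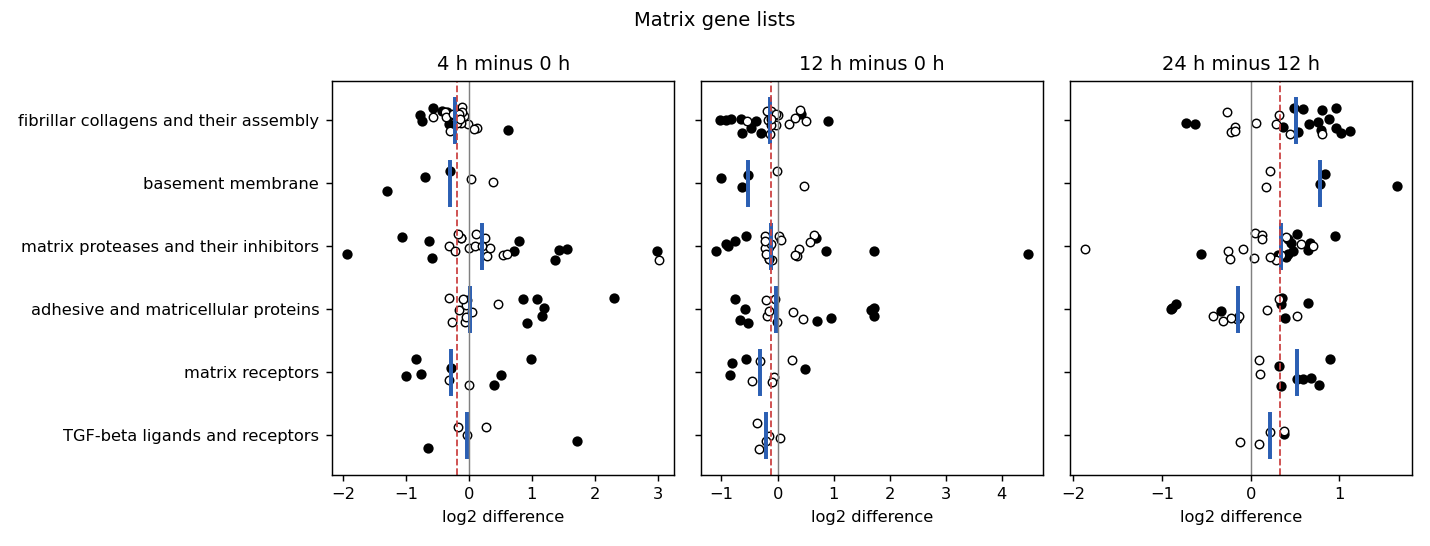
Fitted log2 differences of RPKM + 1 between times (horizontal axis) for the tested genes of 6 lists of matrix genes, 1 point a gene with random vertical scatter, filled where the adjusted p in limma was under 0.05, with the median of each list (blue) and of all 8459 genes (red, dashed). The fibrillar collagen list has a median of -0.13 at 12 h against 0 h, next to -0.12 for all genes, with filled points on both sides.

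The genes most like the members across the 12 columns were named by Pearson's r on log2(RPKM + 1). All columns share the 4 times, so these values are descriptions. Most like the mean of COL1A1, COL1A2 and COL3A1 were CCDC52 (r = 0.95), OLFML3 (0.93), SLC1A2 (0.93), COL5A1 (0.92) and SERPIND1 (0.92). COL5A1, a minor fibrillar collagen that sets fibril width, averaged 2.72 RPKM at 0 h, 1.41 RPKM at 12 h and 3.19 RPKM at 24 h. SERPIND1, a thrombin inhibitor made by hepatocytes, averaged 694 RPKM at 0 h, 397 RPKM at 12 h and 801 RPKM at 24 h, and is no matrix gene.

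For COL4A1 the closest were TUBA1C (r = 0.94), SLC1A5 (0.93), TMEM48 (0.93), NOLA2 (0.93) and MYEF2 (0.91). TUBA1C, an alpha tubulin, averaged 28.4 RPKM at 0 h and 121 RPKM at 24 h. For TIMP1 they included PRKAR2A (r = 0.94), S100A8 (0.93), OSMR (0.91) and S100A9 (0.89). OSMR encodes a receptor chain for oncostatin M and averaged 5.70 RPKM at 0 h and 20.1 RPKM at 12 h. For FN1 they were TNFRSF21 (r = 0.94), OGFRL1 (0.92), CLTB (0.91), IL1R2 (0.91) and PCDH18 (0.90), and FN1 itself was at r = 0.77 to TIMP1 and -0.71 to COL3A1.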

How the data were processed

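Whole liver poly(A) RNA was sequenced in 50-cycle single reads. The authors converted reads to RPKM and deposited 1 table whose columns each average 2 runs, so depth and the spread between rats are unknown. Per the submitters' processing notes, CASAVA and Bowtie 0.12.2 were used and the builds rn4 and mm8 are named, without their roles. P-values set a difference against what the condition and time terms leave over between these averaged columns, not against the spread between rats.

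From these deposited RPKM values, genes averaging 1 RPKM or more (8459 of 14691) were fitted as log2(RPKM + 1) with condition and time as additive terms in limma 3.58.1 (R 4.3.3; empirical Bayes with a trend, 6 residual and 3.29 prior degrees of freedom) with Benjamini-Hochberg adjustment. Comparisons at 1 time had 1 column a group and no test, and 2-fold was used. A simulation on 8459 genes for 24 h against 0 h found 80 of 100 genes changed 2-fold and 96 of 100 changed 4-fold, with 11 unchanged genes called, and for the fistula mean against Cont 89, 99 and 14. It drew independent noise for each gene around a flat level, with no shift of whole columns. In the data 30.6% of all genes rose at 24 h, so these rates need not hold for these columns. Plots used matplotlib 3.10.9. Promoters came from RefSeq (GRCr8), where 6 of the 10 genes matched by symbol.

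The members and gene lists were chosen with earlier results of these data known. Besides the members, the text names up to 3 genes per list and comparison (4, 12 and 24 h against 0 h, fistula mean against Cont) with the largest differences past an adjusted p of 0.05, and the 5 genes most like each pattern, apart from 2 results that are not reported here. HGF, THY1, WT1 and albumin were chosen after their values were seen. Alternatives were a pseudocount of 0.1 RPKM, no filter, columns rescaled on the median gene, no trend, each column left out in turn, and BF and BA exchanged. The marker sum without HGF, the directions of its markers, and single columns left out for named list genes, were added after seeing the data.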

Additional observations from a re-analysis of the deposited data

Results flagged for a closer look

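For 3 genes the conditions moved in opposite directions under the same comparison of times. With 1 column per condition and time, none of these differences was tested.

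COL3A1 at 24 h against 0 h had log2 ratios of -0.15 in Cont, 0.18 in BA and -0.26 in BF. DCN at 4 h against 0 h had log2 ratios of 0.12 in Cont, 0.15 in BA and -0.58 in BF. At 12 h against 0 h DCN was at -0.63 in Cont, 0.13 in BA and 0.076 in BF, and at 24 h against 0 h at -0.45 in Cont, 0.46 in BA and -0.97 in BF. COL4A1 at 12 h against 0 h had log2 ratios of 0.81 in Cont, -0.021 in BA and 0.61 in BF.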

How the results depend on the processing

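The falls of COL1A2, COL3A1 and SPARC at 12 h against 0 h, the rises of FN1 and TIMP1 at 4 and 12 h and of COL4A1 and TIMP1 at 24 h over 0 h, and the rises of COL1A1, COL1A2, COL3A1 and SPARC from 12 to 24 h passed under every alternative run. No member passed between conditions under any of them, where the exchange of BF and BA only swaps labels and could not change this. The causes of the changes below were not tested. The model with both terms already compares conditions within times. No paired analysis was possible because each condition and time has 1 averaged column, so that a replicate number, the same in all 12 columns, pairs nothing further.

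With columns rescaled on the median gene, 0 members were lower at 4 h and 2 higher at 24 h against 0 h, 1 was lower from 12 to 24 h (also 1 with no trend in the variance), and 1566 genes passed from 12 to 24 h and 55 between the fistula mean and Cont. Of all 8459 genes, 2121 were then lower at 4 h and 874 higher at 24 h against 0 h, and 934 lower from 12 to 24 h. Log2 differences that then changed sign were those of DCN at 4 h (0.022), COL1A2 (-0.096) and SPARC (-0.14) at 24 h against 0 h, TIMP1 from 12 to 24 h (-0.33), FN1 in BF against Cont (0.052), COL3A1 in BA against Cont (0.025), and COL3A1 (0.11) and SPARC (0.031) in the fistula mean. Without a filter on low values, 2 genes passed for BF against Cont, 0 for BA against Cont and 4 for the fistula mean.

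With BF and BA exchanged, the differences to Cont became -0.12 for COL3A1, -0.21 for SPARC and 0.31 for FN1 in BF, and 0.065, 0.0011 and -0.078 in BA. Those of BF against BA became -0.33 for COL1A1, -0.13 for COL1A2, -0.19 for COL3A1, 0.24 for DCN, 0.062 for COL4A1, -0.21 for SPARC, 0.39 for FN1 and 0.072 for TIMP1.

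With each column left out in turn, 0 to 3 members were lower at 4 h, 2 to 4 higher at 24 h against 0 h, 1 to 3 lower from 4 to 12 h (1 without BF 12 h) and 0 to 1 lower from 12 to 24 h. The 2 members lower at 4 h became 0 without Cont 0 h, Cont 4 h, BA 4 h or BF 0 h and 1 without BA 0 h. The 4 members higher at 24 h became 2 without Cont 0 h, Cont 24 h, BA 24 h or BF 0 h. Among all genes, 1245 to 2956 passed at 12 h and 1670 to 3392 at 24 h against 0 h, 894 to 2283 from 4 to 12 h, 2264 to 4270 from 12 to 24 h, 2 to 77 for BF against Cont, 0 to 28 for BA against Cont, 1 to 3 for BF against BA and 2 to 133 for the fistula mean.

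Ranges of log2 differences that crossed 0 among times were, for DCN, -0.32 to 0.062 at 4 h and -0.44 to 0.12 at 12 h against 0 h, -0.33 to 0.23 from 4 to 12 h and -0.48 to 0.12 from 12 to 24 h. From 4 to 12 h they were -0.065 to 0.24 for COL4A1, -0.12 to 0.20 for FN1 and -0.18 to 0.48 for TIMP1, and from 12 to 24 h -0.18 to 0.48 for TIMP1. In BF against Cont they were -0.017 to 0.14 for COL3A1, -0.091 to 0.16 for COL4A1, -0.046 to 0.044 for SPARC, -0.21 to 0.051 for FN1 and -0.057 to 0.62 for TIMP1. In BA against Cont they were -0.0085 to 0.15 for COL1A1 and -0.010 to 0.23 for COL4A1, and in BF against BA -0.20 to 0.058 for COL4A1 and -0.30 to 0.26 for TIMP1. In the fistula mean they were -0.11 to 0.024 for COL3A1, -0.012 to 0.19 for COL4A1, -0.013 to 0.23 for FN1 and -0.021 to 0.66 for TIMP1. None of these differences passed the threshold.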
